A study of Mus musculus with 15 samples.

Results

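CD4 and CD8 T cells from the spleens of healthy mice were compared directly, at day 0 and before any transplant, using 6 of the 15 RNA sequencing libraries of a study of caspase-1 activation in mouse acute graft-versus-host disease (aGvHD). The comparison takes 3 CD4 control libraries and 3 CD8 control libraries, and its genes are all 4567 genes that the 4 deposited gene tables list, of which 3581 passed a minimum mean of 5 normalized counts over the 6 libraries and were tested. A normalized count is the number of reads on a gene divided by the size factor of its library. Each control library came from FACS-sorted cells of untransplanted, untreated C57Bl6 mice of wild type, negative for Flica, a fluorescent label of active caspase-1. The study used these cells as the baseline for C57Bl6 donor T cells that were recovered 7 days after transfer into irradiated allogeneic BALB/c recipients and sorted as Flica-negative CD4, Flica-negative CD8 or Flica-positive CD8 cells. Splenocytes of a single control mouse or of a pair were used for each sort, and the labels give neither age nor sex of these mice, nor whether CD4 and CD8 libraries with the same replicate number came from the same animals.

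CD4 T cells read peptides on MHC class II and act largely as helpers, through CD40 ligand and cytokines, while CD8 T cells read peptides on MHC class I and can mature into killers that use perforin and granzymes. The choice between the lineages is made in the thymus, where the transcription factor ThPOK, encoded by Zbtb7b, establishes the CD4 lineage and Runx3 the CD8 lineage. In a healthy spleen both lineages are mostly naive, and each also holds minor populations, among them regulatory and follicular helper cells within CD4 cells and memory-like cells within CD8 cells.

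The 6 libraries held between 2143579 and 3077441 reads on the listed genes, which is not their full depth, and had between 3301 and 4064 listed genes with at least 1 read. Libraries of the same lineage correlated at r = 0.895 to 0.96 across genes on the log2 scale, and libraries of different lineages at r = 0.721 to 0.854, so every pair within a lineage was closer than any pair between lineages. Of the genes that separate the lineages by definition, Cd4 and Cd8b1 were not analysed here, and neither were Runx3, Gata3, Foxp3 and the general T cell markers such as Cd3e, so the labels could be checked by Cd8a and Zbtb7b only. Both matched the labels in every library. Cd8a in the 3 CD4 libraries stood at 0.215% to 0.59% of its mean in CD8 cells, and Zbtb7b in the CD8 libraries at 0.848% to 2.24% of its mean in CD4 cells.

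Of the 3581 genes tested, 515 (14.4%) differed between the lineages, 280 (7.82%) with higher and 235 (6.56%) with lower levels in CD4 cells, at an adjusted p below 0.05 in edgeR's quasi-likelihood test. All adjusted p-values come from this test unless another is named, and a positive log2 fold change means higher in CD4 cells. In 514 of the 515 the CD4 and CD8 values did not overlap, against 1143 genes (31.9%) without overlap among all tested. The difference exceeded 2-fold for 408 of the 515, and 48 were at the floor in one lineage, meaning that no library of that lineage had more than 3 reads. The authors selected the listed genes for a change of more than 4-fold between other groups. Of their 4 comparisons, 3 used these control libraries. The share of 14.4% and the split by direction therefore describe listed genes and not the transcriptome. Among the 729 tested genes from the comparison of Flica-positive with Flica-negative CD8 cells, which used no control library, 54 (7.41%) were called. The p-values measure the spread between 3 libraries per lineage, which the labels call biological replicates. Counts of called genes in the lists below stand against the 14.4% called over all genes tested.

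**Figure D1:**
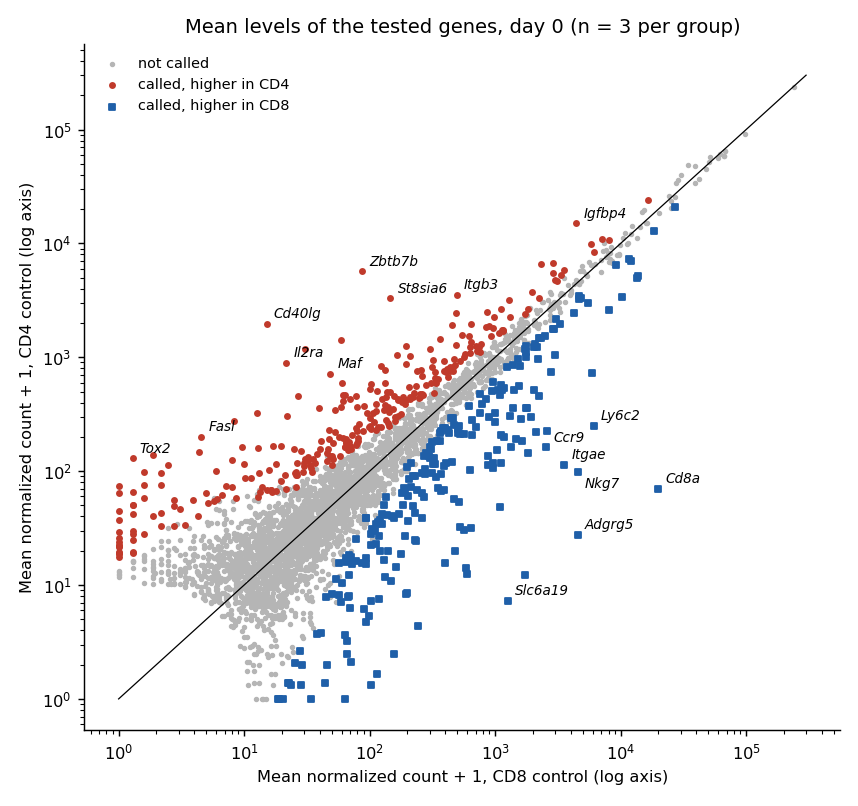
Mean normalized count plus 1 of each tested gene in CD8 control cells (x axis, log) and CD4 control cells (y axis, log), 3 libraries per group, with the line of equal levels. Of 3581 genes, 280 were called higher in CD4 cells (red circles) and 235 higher in CD8 cells (blue squares), and the genes farthest from the line include Cd40lg, Zbtb7b, Cd8a, Adgrg5 and Slc6a19.

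Known lineage genes were among the largest differences. Cd8a encodes the alpha chain of the CD8 coreceptor, which binds MHC class I, and had 21642, 18353 and 19250 normalized counts in the CD8 libraries against 49.1, 42.5 and 117 in the CD4 libraries (log2 fold change -8.14, SE 0.34, adjusted p = 3.41e-09). Zbtb7b had 4909.9, 6052 and 6056 normalized counts in CD4 cells and 84.6, 127 and 48.1 in CD8 cells (log2 fold change 6.03, SE 0.30, adjusted p = 1.37e-08). For Cd40lg, the ligand by which helper cells activate B cells and dendritic cells, the CD4 libraries held 2004, 1907 and 1997 and the CD8 libraries 11.5, 26 and 4.81 (log2 fold change 7.10, SE 0.37, adjusted p = 1.85e-08). For each of the 3 genes, every library of one lineage lay far above every library of the other.

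Of the 14 analysed genes on the list of lineage-associated genes, 5 were higher in CD4 cells (Cd40lg, Zbtb7b, Trat1, Igfbp4, St8sia1), 4 higher in CD8 cells (Cd8a, Itgae, Ctsw, Dapl1) and 5 did not pass the test. Trat1, an adaptor that associates with the T cell receptor, had 2573, 2543 and 2198 normalized counts in CD4 cells and 473, 412 and 573 in CD8 cells (log2 fold change 2.33, SE 0.17, adjusted p = 5.28e-07). Igfbp4, an insulin-like growth factor binding protein, was present in both lineages, with 14046, 14670.4 and 16367 in CD4 cells and 4727, 3944 and 4552 in CD8 cells (log2 fold change 1.77, SE 0.13, adjusted p = 5.28e-07). For St8sia1, a sialyltransferase that makes the ganglioside GD3, the log2 fold change was 0.93 (SE 0.16, adjusted p = 0.00118). These 3 genes were thus graded rather than present in one lineage alone. Dapl1 had 2501, 2099 and 1855 normalized counts in CD8 cells against 1338, 1377 and 939 in CD4 cells (log2 fold change -0.82, SE 0.18, adjusted p = 0.0069). It was not called in 1 fit of all 15 libraries (adjusted p = 0.435), which pools the spread of all 5 groups.

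**Figure D2:**
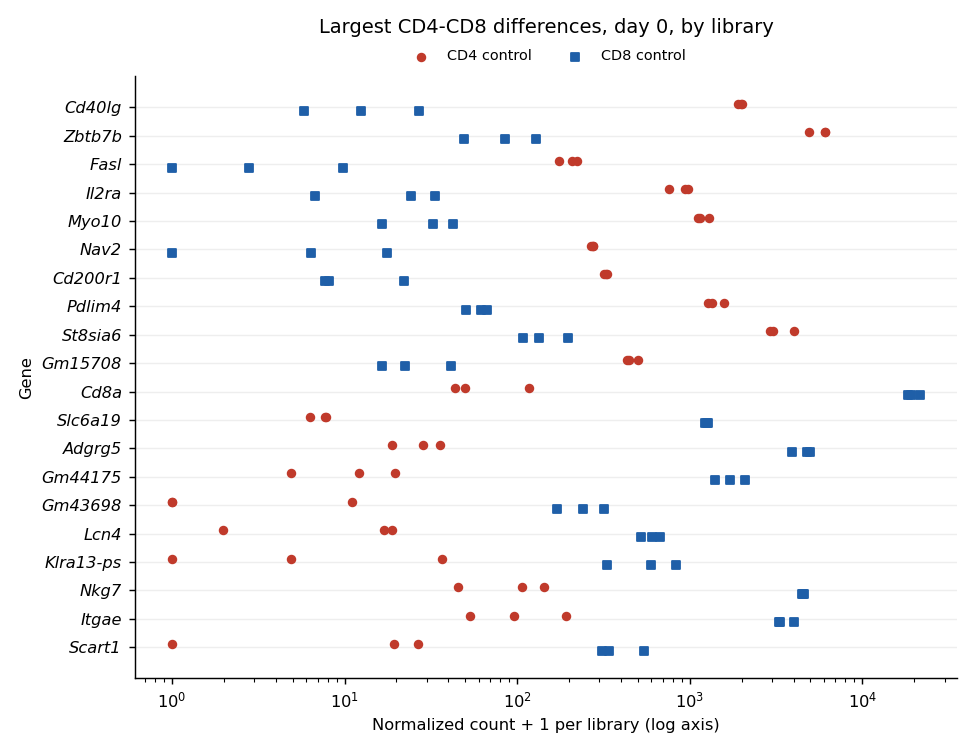
Normalized count plus 1 (log axis) of the 10 genes with the largest difference in each direction, with 1 point per library for CD4 control cells (red circles) and CD8 control cells (blue squares). The 20 genes were chosen among those without overlap, so in each the 3 libraries of one lineage lie apart from the other 3 by selection.

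Among the 10 genes with the largest excess in CD4 cells, Fasl and Il2ra encode proteins usually described in activated cells. Fasl, the ligand of the death receptor Fas, had 220, 206 and 174 normalized counts in CD4 cells and 8.81, 1.79 and 0 in CD8 cells (log2 fold change 5.75, SE 0.66, adjusted p = 2.82e-05). Il2ra, the alpha chain of the IL-2 receptor (CD25), had 980.4, 763 and 934 in CD4 and 32.6, 23.3 and 5.77 in CD8 cells (log2 fold change 5.42, SE 0.39, adjusted p = 3.89e-07). In CD8 cells no library exceeded 32.6 normalized counts for either gene. Cd200r1, an inhibitory receptor for CD200, had 325, 333 and 318 in CD4 cells against 21.1, 7.16 and 6.73 in CD8 cells (log2 fold change 4.78, SE 0.41, adjusted p = 1.72e-06).

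Myo10, an unconventional myosin found at the tips of filopodia, had 1146, 1119 and 1300.3 normalized counts in CD4 cells and 41.4, 31.3 and 15.4 in CD8 cells (log2 fold change 5.32, SE 0.29, adjusted p = 2.95e-08). Pdlim4, a PDZ and LIM domain protein that binds actin-associated partners, had 1352, 1285 and 1586 in CD4 and 66.1, 49.3 and 60.6 in CD8 cells (log2 fold change 4.58, SE 0.21, adjusted p = 6.38e-09). St8sia6, a sialyltransferase that adds alpha-2,8-linked sialic acid, had 2916, 3025 and 4009 in CD4 and 107, 133 and 196 in CD8 cells (log2 fold change 4.51, SE 0.24, adjusted p = 2.73e-08). All 3 had low but non-zero counts in each CD8 library. Nav2, a neuron navigator gene, had 274, 275 and 269 in CD4 cells and 16.7, 5.37 and 0 in CD8 cells, and Gm15708, a predicted gene, a log2 fold change of 4.14 (SE 0.33, adjusted p = 1.11e-06).

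On the CD8 side, the largest differences after Cd8a included surface proteins, a transporter and several predicted genes. Adgrg5, an adhesion G protein-coupled receptor, had 3904, 4769 and 4976 normalized counts in CD8 cells and 17.9, 34.8 and 27.6 in CD4 cells (log2 fold change -7.39, SE 0.25, adjusted p = 2.56e-10). Slc6a19, a transporter of neutral amino acids known from gut and kidney, had 1257, 1228 and 1285 in CD8 cells and 6.7, 6.77 and 5.34 in CD4 cells (log2 fold change -7.63, SE 0.25, adjusted p = 2.56e-10). The ratio of the means was 170 for Adgrg5 and 200 for Slc6a19, with little spread among the 3 CD8 libraries. Itgae, the integrin chain CD103 that binds E-cadherin, had 4022, 3356 and 3309 in CD8 cells and 52.5, 94.8 and 190.3 in CD4 cells (log2 fold change -4.97, SE 0.36, adjusted p = 3.89e-07).

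Lcn4, a lipocalin, had 669, 605 and 521 normalized counts in CD8 cells and 17.9, 0.967 and 16 in CD4 cells (log2 fold change -5.69, SE 0.47, adjusted p = 1.35e-06). Scart1, a scavenger receptor of the cysteine-rich family best known from gamma-delta T cells, had 307, 338 and 546 in CD8 and 25.7, 18.4 and 0 in CD4 cells (log2 fold change -4.79, SE 0.64, adjusted p = 0.000124). Its relative Scart2 had 376, 447 and 602 in CD8 and 15.6, 22.2 and 18.7 in CD4 cells (log2 fold change -4.64, SE 0.30, adjusted p = 1.48e-07). Since the 2 Scart genes are similar in sequence, reads could be split between them and their separate values are uncertain. The predicted genes Gm44175 and Gm43698 had log2 fold changes of -7.24 and -6.26 (adjusted p = 1.4e-08 and 6.25e-05), and the pseudogene Klra13-ps -5.56 (adjusted p = 0.000124). Klra13-ps belongs to a family of near-identical Ly49 genes, so its reads may in part come from others of that family.

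Of the 13 tested members of the cytotoxic list, 7 were higher in CD8 cells and 1, Fasl, higher in CD4 cells. The median log2 fold change of these genes was -0.80 against 0.06 over all genes tested. Nkg7, a granule membrane protein needed for degranulation, had 4534, 4470.3 and 4602 normalized counts in CD8 cells and 44.7, 105 and 141 in CD4 cells (log2 fold change -5.53, SE 0.32, adjusted p = 4.63e-08). Ctsw, a cathepsin of cytotoxic cells, had 5429, 5939 and 6244 in CD8 and 718, 724 and 725 in CD4 cells (log2 fold change -3.02, SE 0.14, adjusted p = 9.53e-09). Both genes also had reads in each CD4 library, and the values of the lineages did not overlap.

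Prf1, which encodes the pore-forming perforin, had 1538, 1642 and 1447 normalized counts in CD8 cells and 511, 519 and 647 in CD4 cells (log2 fold change -1.46, SE 0.17, adjusted p = 2.58e-05). Cst7, an inhibitor of cathepsins in granules, had 1039, 1182 and 1100.2 in CD8 and 262, 175 and 187 in CD4 cells (log2 fold change -2.41, SE 0.20, adjusted p = 1.35e-06). By contrast Gzmb had 51.1, 40.3 and 51 in CD8 cells and 32.4, 36.7 and 13.3 in CD4 cells (adjusted p = 0.476). Gzma had 85.5, 35.8 and 96.2 in CD8 and 50.2, 28 and 74.7 in CD4 cells (adjusted p = 0.649). Neither granzyme passed the test and the values of Gzma overlapped between the lineages. Gzmm, a granzyme of innate-like lymphocytes, had 142, 201 and 120.2 in CD8 cells and 12.3, 52.2 and 48.9 in CD4 cells (log2 fold change -2.01, SE 0.47, adjusted p = 0.0099). It lost its call without CD8 control replicate 2 (adjusted p = 0.0615).

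The granzyme inhibitors Serpinb6b and Serpinb9 were higher in CD8 cells (log2 fold changes -1.47 and -0.80, adjusted p = 0.0206 and 0.029). Serpinb6b did not pass without CD4 control replicate 1 (adjusted p = 0.0544) or CD8 control replicate 2 (adjusted p = 0.117), and Serpinb9 did not pass without CD4 control replicate 1 (adjusted p = 0.0735), CD4 control replicate 2 (adjusted p = 0.0555), CD4 control replicate 3 (adjusted p = 0.0837), CD8 control replicate 2 (adjusted p = 0.0879) or CD8 control replicate 3 (adjusted p = 0.0806). Without CD8 control replicate 2, 4 of the 13 cytotoxic genes were called higher in CD8 cells instead of 7.

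To show what lies at the start of such genes, promoters of RefSeq (GRCm38.p6, from 250 bases before to 50 bases after the gene start) were searched for the core motif of RUNX factors, TGTGGT, which reads ACCACA on the opposite strand. RUNX proteins include Runx3 of the CD8 lineage, whose own counts were not analysed here. The motif was in 59 of 223 promoters of the genes called higher in CD8 cells (26.5%), in 39 of 281 of those called higher in CD4 cells (13.9%), in 305 of 2059 of the genes tested and not called (14.8%) and in 5506 of all 32851 promoters (16.8%). Counted by gene, 55 of 172 CD8 genes with a promoter (32%) and 37 of 211 CD4 genes (17.5%) had at least 1 match. Among genes tested and not called this share was 17.7%, and among all genes with a promoter 18.9%. The same count for the T-box core GGTGTG, or CACACC on the opposite strand, gave 24.2% of the promoters of CD8 genes, 23.8% of CD4 genes and 19% of all promoters, and for the GATA core AGATAA, or TTATCT on the opposite strand, 13%, 8.54% and 11.2%. Median GC content was 55% for the CD8 genes, 60.7% for the CD4 genes and 52.7% for all promoters. These shares are descriptions without a test, and a match is not evidence of binding. The promoters of 3 genes higher in CD8 cells and 1 promoter of Zbtb7b follow, each with 1 match in capitals, 5′ to 3′ on the strand of the gene. They lie at chr7:43436888-43437187 (Nkg7, plus strand), chr8:94923444-94923743 (Adgrg5, plus), chr10:61297586-61297885 (Prf1, plus) and chr3:89387622-89387921 (Zbtb7b, minus).
Nkg7: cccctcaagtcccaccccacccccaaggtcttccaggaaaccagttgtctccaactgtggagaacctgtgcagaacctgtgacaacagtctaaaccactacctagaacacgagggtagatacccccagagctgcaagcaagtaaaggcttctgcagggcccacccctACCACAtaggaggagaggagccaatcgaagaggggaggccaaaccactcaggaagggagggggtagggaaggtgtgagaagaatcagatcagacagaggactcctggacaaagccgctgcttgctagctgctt
Adgrg5: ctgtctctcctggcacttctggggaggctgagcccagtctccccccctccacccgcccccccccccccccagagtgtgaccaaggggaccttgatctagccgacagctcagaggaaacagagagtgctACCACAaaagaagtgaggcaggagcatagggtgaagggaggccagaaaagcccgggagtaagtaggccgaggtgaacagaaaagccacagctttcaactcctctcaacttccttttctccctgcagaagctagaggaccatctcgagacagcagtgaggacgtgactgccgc
Prf1: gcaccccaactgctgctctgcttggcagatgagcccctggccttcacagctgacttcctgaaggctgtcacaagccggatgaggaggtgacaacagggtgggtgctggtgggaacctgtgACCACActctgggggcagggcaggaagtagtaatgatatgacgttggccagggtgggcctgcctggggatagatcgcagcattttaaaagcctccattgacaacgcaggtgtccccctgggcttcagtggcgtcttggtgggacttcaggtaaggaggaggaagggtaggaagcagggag
Zbtb7b: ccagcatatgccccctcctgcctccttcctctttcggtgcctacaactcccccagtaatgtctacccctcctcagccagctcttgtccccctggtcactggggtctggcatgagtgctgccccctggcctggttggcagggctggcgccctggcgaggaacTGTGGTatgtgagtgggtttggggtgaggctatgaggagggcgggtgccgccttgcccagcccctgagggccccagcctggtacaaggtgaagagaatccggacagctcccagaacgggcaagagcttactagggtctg
Of the 101 genes named here by rule, 74 had a promoter in the table, and Cd8a and Il2ra were among those in whose window the 6 letters did not occur.

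The killer cell lectin-like receptors, which include inhibitory and activating receptors of NK cells and memory-like T cells, had 5 of 13 tested genes higher in CD8 cells and 1 higher in CD4 cells. Their median log2 fold change was -1.6. Klrd1 (CD94) had 2062, 1635 and 1805 normalized counts in CD8 cells and 207, 137 and 85.4 in CD4 cells (log2 fold change -3.69, SE 0.27, adjusted p = 5.28e-07). Klrk1 (NKG2D) had 337, 444 and 755 in CD8 and 41.3, 65.8 and 50.7 in CD4 cells (log2 fold change -3.28, SE 0.33, adjusted p = 7.14e-06). The Ly49 genes Klra6 and Klra3 were also higher in CD8 cells, at no more than 94.3 normalized counts in any library (adjusted p = 0.00313 and 0.00552). Klrg1 went the other way, with 74.8, 57.1 and 28.5 in CD4 cells and 2.64, 0 and 11.5 in CD8 cells (log2 fold change 3.48, SE 0.99, adjusted p = 0.0298). This call was lost without CD4 control replicate 1 (adjusted p = 0.164), CD4 control replicate 2 (adjusted p = 0.109), CD8 control replicate 1 (adjusted p = 0.101) or CD8 control replicate 2 (adjusted p = 0.055). On the list of NK cell markers 1 of 11 tested genes (9.09%, against 14.4% of all genes tested), Prf1, was called. The other 10 summed to 233.1 to 311.5 normalized counts in CD4 and 285.7 to 408.7 in CD8 libraries.

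Genes of memory-like CD8 cells, which respond fast to IL-12, IL-15 and IL-18, were higher in CD8 cells for 9 and higher in CD4 cells for 3 of the 21 tested. Il2rb, the receptor chain shared by IL-2 and IL-15, had 6216, 8931 and 8984 normalized counts in CD8 cells and 2203, 2679 and 2891 in CD4 cells (log2 fold change -1.63, SE 0.17, adjusted p = 1.2e-05). Tbx21, the transcription factor T-bet, had 362, 509.5 and 479 in CD8 and 75.9, 143 and 136 in CD4 cells (log2 fold change -1.92, SE 0.27, adjusted p = 0.000192). The chemokine gene Ccl5 had 1011, 2083 and 1819.5 in CD8 and 151, 201 and 202 in CD4 cells (log2 fold change -3.15, SE 0.26, adjusted p = 1.35e-06). Its lowest CD8 value was in replicate 1. For each of these genes the CD4 libraries also held counts, so the lineages differed in degree.

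Il18rap, the signalling chain of the IL-18 receptor, had 795, 912 and 914 normalized counts in CD8 cells and 77, 121 and 138 in CD4 cells (log2 fold change -2.96, SE 0.23, adjusted p = 9.07e-07), while the binding chain Il18r1 differed by -0.60 only (adjusted p = 0.0181) and was not called without CD4 control replicate 1 (adjusted p = 0.0784), CD4 control replicate 2 (adjusted p = 0.055) or CD8 control replicate 2 (adjusted p = 0.123). Cxcr3 and Hopx were higher in CD8 cells (log2 fold changes -1.60 and -1.24, adjusted p = 0.000359 and 0.000585). Ly6c2 had 6101, 5943 and 6283 in CD8 cells and 167, 174 and 406 in CD4 cells (log2 fold change -4.61, SE 0.30, adjusted p = 1.75e-07), whereas its neighbour Ly6c1 had 471, 583 and 305 in CD8 and 1775, 1787 and 2160.4 in CD4 cells, a difference in the opposite direction (log2 fold change 2.07, SE 0.22, adjusted p = 1.42e-05). Because Ly6c1 and Ly6c2 are nearly identical, the assignment of reads to either is uncertain. The other members higher in CD4 cells were Osbpl3 and the integrin chain Itgb1 (log2 fold changes 1.24 and 0.55, adjusted p = 0.0272 and 0.0497). Osbpl3 was not called without CD4 control replicate 1 (adjusted p = 0.0734), CD4 control replicate 3 (adjusted p = 0.109), CD8 control replicate 1 (adjusted p = 0.069) or CD8 control replicate 2 (adjusted p = 0.0926), and Itgb1 was not called when any of the 6 libraries was left out (adjusted p from 0.0507 to 0.163), or in 1 fit of all 15 libraries (adjusted p = 0.0765).

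Genes of regulatory T cells, which restrain other T cells and in a healthy spleen are mostly CD4 cells, were higher in CD4 cells for 15 of 26 tested and higher in CD8 cells for none in edgeR, where 1 was higher in CD8 cells at an unadjusted p below 0.05, as it was in DESeq2 after adjustment. The median log2 fold change of these genes was 1.67 against 0.06 over all genes tested. Ctla4, an inhibitory receptor that removes B7 ligands, had 877, 851 and 607 normalized counts in CD4 cells and 95.1, 191 and 112 in CD8 cells (log2 fold change 2.55, SE 0.27, adjusted p = 1.39e-05). Nrp1, a coreceptor marking thymus-derived regulatory cells, had 392, 333 and 522 in CD4 and 33.5, 63.6 and 83.7 in CD8 cells (log2 fold change 2.79, SE 0.33, adjusted p = 3.99e-05). Itgb8, an integrin chain that activates latent TGF-beta, had 83.7, 117 and 133 in CD4 cells and 0, 4.48 and 0 in CD8 cells (log2 fold change 6.10, SE 0.84, adjusted p = 0.000154). In libraries of whole CD4 or CD8 cells, more cells of a type and more RNA per cell cannot be told apart.

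For 4 genes of this list the CD8 libraries were at the floor, so that only a lower bound can be given. Areg, a growth factor of tissue repair, had 36.8, 54.2 and 39.1 normalized counts in CD4 cells and 0 in the CD8 libraries, at least 15.8-fold higher (adjusted p = 0.000873). Ccr8, a chemokine receptor, had 88.2, 28 and 77.4 in CD4 and 0.881, 0 and 0 in CD8 cells (at least 23.6-fold, adjusted p = 0.000211). Il1rl1, the receptor of IL-33, had 30.1, 43.5 and 73.8 in CD4 and 0.881, 0 and 0 in CD8 cells (at least 18-fold, adjusted p = 0.000665). Socs2, a suppressor of cytokine signalling, was at least 20.8-fold higher (adjusted p = 0.00058). These bounds use 3 reads per library in CD8 cells and cover counting error only.

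Izumo1r (folate receptor 4) had 1536, 1455 and 1341 normalized counts in CD4 cells and 402, 287 and 407 in CD8 cells (log2 fold change 1.98, SE 0.18, adjusted p = 3.65e-06). Gpr83, Tnfrsf4 (OX40), Tnfrsf9 (4-1BB), Capg and Prdm1 (Blimp-1) were higher in CD4 cells by 1.23 to 1.79 on the log2 scale, with adjusted p from 0.000167 to 0.0101, and of these Prdm1 was not called without CD4 control replicate 1 (adjusted p = 0.0629). Among the members that did not pass, Il10 had 31.3, 29 and 44.5 in CD4 cells and 3.52, 0 and 8.66 in CD8 cells (adjusted p = 0.0827). Tigit had 94.9, 98.6 and 114 in CD4 and 18.5, 19.7 and 71.2 in CD8 cells (adjusted p = 0.0768), and Icos 797, 894 and 1045 in CD4 and 607, 695 and 792 in CD8 cells (adjusted p = 0.196).

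Follicular helper cells guide B cells in germinal centres, and 10 of the 13 tested genes of their list were higher in CD4 cells. None was called higher in CD8 cells in edgeR, also at an unadjusted p below 0.05, or in DESeq2. The median log2 fold change of the tested genes was 1.98. The 3 not called were Icos, Pou2af1 and Cxcr5 (log2 fold changes 0.39, -0.09 and -0.29, adjusted p = 0.196, 0.881 and 0.337). Cxcr5 had 640, 590 and 596 normalized counts in CD4 cells and 773, 679 and 773 in CD8 cells. It is also on the list of B cell markers, which had counts in the libraries of both lineages, and the source of its reads was not tested. Bcl6 was not analysed here. Maf, a transcription factor that drives IL-21 and IL-10, had 567, 760.1 and 822 normalized counts in CD4 cells and 44.1, 52.8 and 46.2 in CD8 cells (log2 fold change 3.91, SE 0.23, adjusted p = 6.68e-08). Pdcd1, the inhibitory receptor PD-1, had 157, 117 and 204 in CD4 and 5.29, 20.6 and 9.62 in CD8 cells (log2 fold change 3.74, SE 0.50, adjusted p = 0.000128). Tox2, a nuclear factor of follicular helper cells, had 87.1, 106 and 193 in CD4 cells and 0.881, 0 and 0 in CD8 cells, at least 47-fold higher (adjusted p = 4.98e-06). All 3 separated the lineages without overlap.

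Il21, the helper cytokine of germinal centres, had 23.4, 19.3 and 18.7 normalized counts in CD4 cells and none in the CD8 libraries, at least 7.5-fold higher (adjusted p = 0.0168), and was not called without CD4 control replicate 1 (adjusted p = 0.0691) or CD4 control replicate 2 (adjusted p = 0.0643). Sostdc1, a secreted antagonist of BMP signalling, was at least 10.4-fold higher (adjusted p = 0.0103), with its highest value in CD4 replicate 3, and was not called without CD4 control replicate 3 (adjusted p = 0.0929). Slamf1, Izumo1r, Rgs16, Angptl2 and Cebpa made up the rest (log2 fold changes 1.10, 1.98, 1.69, 1.94 and 3.61). Rgs16 was not called without CD4 control replicate 1 (adjusted p = 0.124), CD4 control replicate 2 (adjusted p = 0.0839), CD8 control replicate 1 (adjusted p = 0.103) or CD8 control replicate 3 (adjusted p = 0.06). Angptl2 was not called without CD4 control replicate 1 (adjusted p = 0.135), CD4 control replicate 2 (adjusted p = 0.0914), CD8 control replicate 1 (adjusted p = 0.104) or CD8 control replicate 2 (adjusted p = 0.118), and Cebpa was not called without CD4 control replicate 1 (adjusted p = 0.115), CD4 control replicate 2 (adjusted p = 0.103), CD4 control replicate 3 (adjusted p = 0.161), CD8 control replicate 2 (adjusted p = 0.117) or CD8 control replicate 3 (adjusted p = 0.0726), or with TMM scaling (adjusted p = 0.069). Without CD4 control replicate 1, and likewise without CD4 control replicate 2, 6 of the 13 genes were called instead of 10.

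Of 17 tested helper cytokines and receptors, 7 were higher in CD4 cells, among them Ccr8, Il21 and Il1rl1, and 1, Cxcr6, higher in CD8 cells. The count for CD4 cells was 4 without CD4 control replicate 1 and also 4 without CD4 control replicate 2. Cxcr6, the receptor of the chemokine CXCL16, had 1250.2, 971 and 1117 normalized counts in CD8 cells and 134, 107 and 107 in CD4 cells (log2 fold change -3.26, SE 0.20, adjusted p = 7.41e-08). Ifng had 61.4, 115 and 45.4 in CD4 cells and 85.5, 62.7 and 80.8 in CD8 cells (adjusted p = 0.972), and Il17a, Il13 and Csf2 had no reads in any of the 6 libraries. These 3 genes were therefore not tested.

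The checkpoint list holds inhibitory receptors and nuclear factors of chronically stimulated T cells. Of its 13 tested genes, 7 were higher in CD4 cells, the receptor genes Cd200r1, Pdcd1, Ctla4 and Lag3 and the nuclear factors Tox2, Nr4a1 and Nr4a3, and 1 was higher in CD8 cells. The median log2 fold change of these genes was 1.49. The 4 with the largest difference were Tox2, Cd200r1, Pdcd1 and Ctla4, with the values already given. Lag3, which binds MHC class II, had 100.5, 89 and 191 normalized counts in CD4 cells and 35.2, 23.3 and 44.2 in CD8 cells (log2 fold change 1.89, SE 0.43, adjusted p = 0.0082). Cd160 was the member higher in CD8 cells, with 357, 398 and 354 against 69.2, 55.1 and 72 (log2 fold change -2.50, SE 0.25, adjusted p = 7.14e-06). Lag3 and Cd160 were named after their values were seen.

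**Figure D3:**
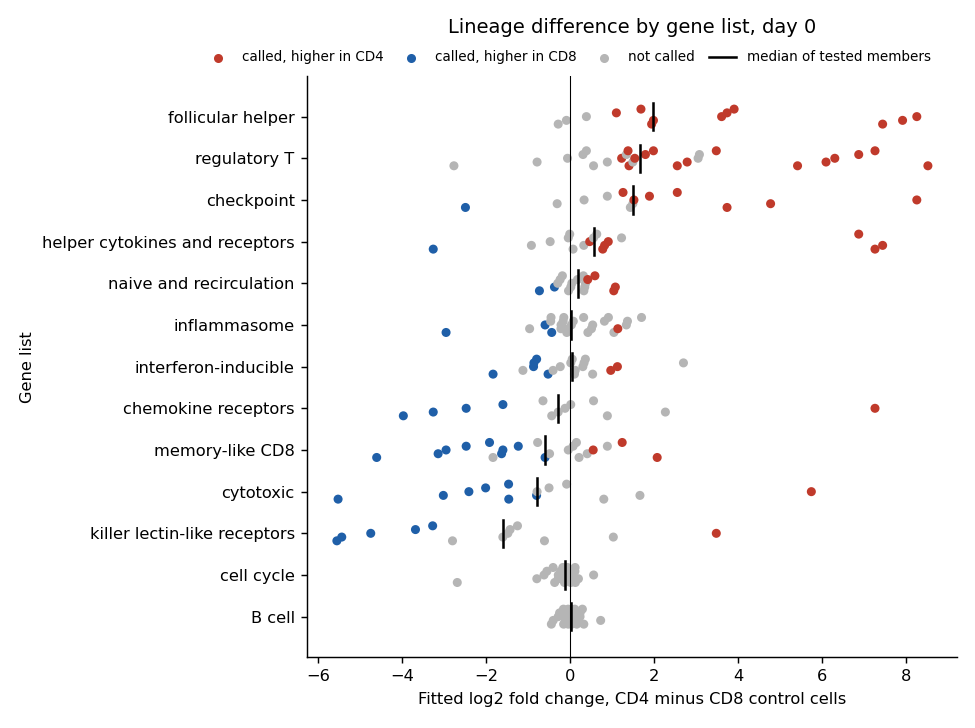
Fitted log2 fold change of CD4 minus CD8 control cells (x axis) for the tested members of 13 gene lists (y axis), 1 point per gene, with genes called higher in CD4 cells in red, higher in CD8 cells in blue and not called in grey. Black bars mark the median of the tested members, 1.98 for the follicular helper list, 1.67 for the regulatory T list and -0.80 for the cytotoxic list, and no member of the cell cycle or B cell list was called by edgeR.

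Of 13 chemokine receptors tested, 4 were higher in CD8 cells, among them Ccr9, Cxcr6 and Cxcr3, and 1, Ccr8, higher in CD4 cells. Ccr9, which guides cells to the small intestine and the thymus, had 2579.6, 2607 and 2465 normalized counts in CD8 cells and 91.6, 154 and 238 in CD4 cells (log2 fold change -3.98, SE 0.28, adjusted p = 3.42e-07). Ccr7, which brings naive cells into lymph nodes, had 8339.6, 8273 and 7377 in CD8 cells and 8321, 7902 and 7989 in CD4 cells, a log2 fold change of 0.01 (SE 0.12, adjusted p = 0.971).

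Of 17 tested genes of naive and recirculating cells, 4 were higher in CD4 cells and 2 higher in CD8 cells. Their median log2 fold change was 0.18. Sox4, a transcription factor of immature lymphocytes, had 1474, 1309 and 1291 normalized counts in CD4 cells and 769, 531 and 632 in CD8 cells (log2 fold change 1.08, SE 0.18, adjusted p = 0.000709). Amigo2, an adhesion molecule, had 975, 947 and 989.9 in CD4 and 464, 427 and 526 in CD8 cells (log2 fold change 1.04, SE 0.17, adjusted p = 0.000571), but was not called in 1 fit of all 15 libraries (adjusted p = 0.313). Tdrp was higher in CD8 cells (log2 fold change -0.73, adjusted p = 0.00383), but not in 1 fit of all 15 libraries (adjusted p = 0.508). Bach2, a repressor that preserves the naive state, had a log2 fold change of 0.59 (adjusted p = 0.0267) and was not called without CD4 control replicate 3 (adjusted p = 0.0666), CD8 control replicate 1 (adjusted p = 0.0881) or CD8 control replicate 2 (adjusted p = 0.135), or in 1 fit of all 15 libraries (adjusted p = 0.355). For Tcf7 and Lef1, which encode factors of naive T cells, the log2 fold changes were 0.33 and 0.18 (adjusted p = 0.0656 and 0.45). With DESeq2 in place of edgeR 7 genes of this list were called higher in CD4 cells, and the count fell to 2 without CD8 control replicate 1 and also to 2 without CD8 control replicate 2.

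The study is about the inflammasome, and its list holds sensors, caspases and the cytokines and receptors of the IL-1 family. In edgeR 4 of its 25 tested genes (16%) differed, near the 14.4% over all genes. Casp1 had 89.3, 107 and 71.2 normalized counts in CD4 cells and 54.6, 51.9 and 23.1 in CD8 cells (log2 fold change 1.04, SE 0.44, adjusted p = 0.155). Casp4 had 48, 62.9 and 17.8 in CD4 and 15, 24.2 and 0 in CD8 cells (log2 fold change 1.70, SE 0.99, adjusted p = 0.346). Neither passed the test. The values of Casp1 did not overlap, as was so for 31.9% of all genes tested. The called genes were Il18rap and Il18r1 of the memory-like list, Ifi213, a DNA-binding protein of the interferon-inducible p200 family (log2 fold change -0.44, adjusted p = 0.0424), and Nlrx1, a mitochondrial NOD-like receptor (1.14, adjusted p = 0.0311). Ifi213 was not called without CD4 control replicate 1 (adjusted p = 0.124), CD4 control replicate 2 (adjusted p = 0.115), CD8 control replicate 2 (adjusted p = 0.148) or CD8 control replicate 3 (adjusted p = 0.151), or in 1 fit of all 15 libraries (adjusted p = 0.406). Nlrx1 was not called without CD4 control replicate 1 (adjusted p = 0.121), CD4 control replicate 2 (adjusted p = 0.0989), CD8 control replicate 2 (adjusted p = 0.0994) or CD8 control replicate 3 (adjusted p = 0.0746).

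Interferon-inducible genes went in both directions: 5 of 19 tested were higher in CD8 cells and 2 higher in CD4 cells. The median log2 fold change of these genes was 0.05. Mx1, an antiviral GTPase, had 287, 187 and 241 normalized counts in CD8 cells and 86, 53.2 and 61.4 in CD4 cells (log2 fold change -1.84, SE 0.31, adjusted p = 0.000855). Gbp3, a guanylate-binding protein, had 409, 424 and 426 in CD8 and 223, 214 and 249.9 in CD4 cells (log2 fold change -0.87, SE 0.19, adjusted p = 0.0065). Oas2, an activator of RNase L, had 700.1, 601 and 651 in CD4 cells and 369, 341 and 288 in CD8 cells (log2 fold change 0.97, SE 0.18, adjusted p = 0.00228), but was not called in 1 fit of all 15 libraries (adjusted p = 0.116). Iigp1, an immunity-related GTPase, had 432, 501 and 339.8 in CD4 and 167, 177 and 239 in CD8 cells (log2 fold change 1.13, SE 0.23, adjusted p = 0.00402). The other 3 genes higher in CD8 cells were Gbp9, Tgtp1 and Tgtp2, and the Tgtp genes are a near-identical pair whose reads may be shared.

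Nr4a1, an immediate target of T cell receptor signalling, had 7149.9, 6802 and 5834 normalized counts in CD4 cells and 2496, 2635 and 1771 in CD8 cells (log2 fold change 1.52, SE 0.17, adjusted p = 2.05e-05). Its relative Nr4a3 had 1579, 2828 and 3555 in CD4 and 637, 1324 and 1366 in CD8 cells (log2 fold change 1.26, SE 0.30, adjusted p = 0.0106). Nr4a3 was not called without CD4 control replicate 3 (adjusted p = 0.0623). Ier3 was the 1 early response gene higher in CD8 cells (log2 fold change -1.90, SE 0.43, adjusted p = 0.00805), not called without CD8 control replicate 1 (adjusted p = 0.0538). These were 3 of 10 tested (30%, against 14.4% of all genes tested) on the list of early activation, which cell isolation can also induce. In edgeR no gene was called among 23 tested cell cycle genes, with 2 higher in CD8 cells at an unadjusted p below 0.05 and 1 called by DESeq2. Nor was any called among 13 mitochondrially encoded genes, with 1 at an unadjusted p below 0.05 and 0 called by DESeq2. The share of listed reads on mitochondrially encoded genes was 26.1% to 27.1% in CD4 libraries and 26.2% to 28.8% in CD8 libraries.

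RNA of other blood cells was present in the libraries of both lineages. In edgeR none of 27 tested B cell markers was called, with 1 higher in CD8 cells at an unadjusted p below 0.05, and DESeq2 called 1. Their sum was 21677 to 27974 normalized counts in CD4 libraries and 22379 to 30296 in CD8 libraries. Of 102 tested immunoglobulin genes 1 was called, the joining segment Ighj1, which was higher in CD8 cells at no more than 47.1 normalized counts in any library and was not called without CD4 control replicate 1 (adjusted p = 0.083), CD4 control replicate 2 (adjusted p = 0.0534), CD8 control replicate 1 (adjusted p = 0.125), CD8 control replicate 2 (adjusted p = 0.0502) or CD8 control replicate 3 (adjusted p = 0.0919), or in 1 fit of all 15 libraries (adjusted p = 0.148).

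The haemoglobin-rich erythroid list summed to 9365, 9327 and 2133 normalized counts in CD4 libraries 1 to 3 and to 7415, 8222 and 2044 in CD8 libraries 1 to 3. Replicate 3 was thus the lowest of each lineage. Neither edgeR nor DESeq2 called any of the 9 tested genes, with 1 at an unadjusted p below 0.05 in edgeR. Markers of macrophages and monocytes other than Ly6c2 summed to 994.1 to 1160 in CD4 and 729.9 to 961.2 in CD8 libraries, with Cd163 called higher in CD4 cells (adjusted p = 0.0105) but not without CD4 control replicate 1 (adjusted p = 0.0503) or CD4 control replicate 3 (adjusted p = 0.054), or in 1 fit of all 15 libraries (adjusted p = 0.105). Dendritic cell markers other than Ccr9 summed to 12409 to 17248 and 12074 to 17469, with Itgax (CD11c) called higher in CD8 cells (adjusted p = 0.0425) but not without CD4 control replicate 2 (adjusted p = 0.107), CD4 control replicate 3 (adjusted p = 0.0684), CD8 control replicate 1 (adjusted p = 0.0714), CD8 control replicate 2 (adjusted p = 0.106) or CD8 control replicate 3 (adjusted p = 0.112), or with TMM scaling (adjusted p = 0.0563). Most of this sum came from Cd74, H2-Ab1, H2-Aa and H2-Eb1, at 8160, 2778, 2534 and 2249 in CD4 control replicate 1. Cd74 and Ly6d are also on the B cell list, so the dendritic and B cell sums share counts. Flt3, Xcr1 and Batf3 had no more than 14.5, 34.6 and 1.76 normalized counts in any library. Neutrophil markers summed to 144.1 to 239 in CD4 and 266.9 to 329.9 in CD8 libraries, with 1 of 10 tested, G0s2, called higher in CD8 cells (adjusted p = 0.00747) and 5 of 23 at 0 in all 6 libraries. These sums include G0s2, which had 42.4, 56.1 and 19.6 in CD4 and 97.8, 178 and 172 in CD8 libraries. Of the whole lists, 14.3% of tested macrophage, 16.7% of dendritic cell and 10% of neutrophil markers were called, against 14.4% of all genes. The part of these other blood cells in the T cell gene differences was not tested.

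**Figure D4:**
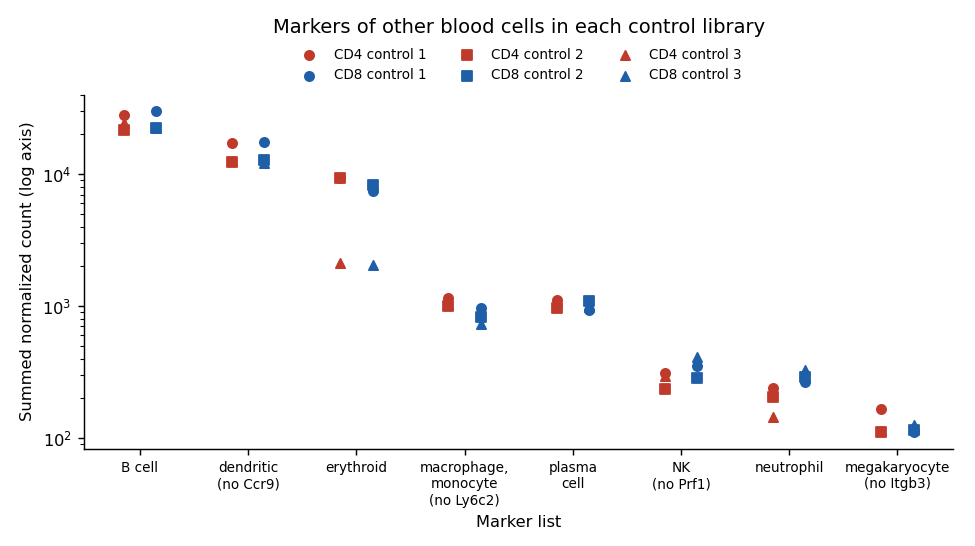
Summed normalized counts (y axis, log) of 8 marker lists of other blood cells in each of the 6 control libraries, CD4 in red and CD8 in blue, with circles, squares and triangles for replicates 1, 2 and 3. B cell markers sum to between 21677 and 30296 in all 6 libraries, and the erythroid sum is lowest in replicate 3 of both lineages, at 2133 and 2044. The dendritic and B cell lists share Cd74 and Ly6d, and the neutrophil sum includes G0s2, which was called higher in CD8 cells.

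Of the megakaryocyte list 1 of 4 tested genes was called, Itgb3, the integrin beta 3 chain, with 3235, 3259 and 4109 normalized counts in CD4 cells and 439, 489.8 and 554 in CD8 cells (log2 fold change 2.84, SE 0.17, adjusted p = 6.68e-08). The other 5 genes of that list summed to 110.2 to 165.3 in CD4 and 110.1 to 126 in CD8 libraries. Of the plasma cell markers, Prdm1 was higher in CD4 cells and Slamf7 higher in CD8 cells (log2 fold change -1.53, adjusted p = 0.00295), 2 of 7 tested. Among gamma-delta and innate-like T cell genes 2 of 8 tested were called, Slamf1 higher in CD4 cells and Scart2 higher in CD8 cells. Scart1, called higher in CD8 cells as given above, was not counted on this list under that symbol. The shares called were 25% for the megakaryocyte, 28.6% for the plasma cell and 25% for the gamma-delta list, against 14.4% of all genes. None of 3 tested mast cell and basophil genes was called by edgeR, also at an unadjusted p below 0.05, or by DESeq2, and no endothelial, general T cell or sex-linked gene of the lists was tested.

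Gene families were read by the start of their symbols. Of 20 T cell receptor V genes, 2 were higher in CD4 cells, Trav14-3 (141, 80.3 and 177 normalized counts against 35.2, 28.7 and 29.8, adjusted p = 0.00272) and Trav14n-3 (adjusted p = 0.0211). Trav14n-3 was not called without CD4 control replicate 1 (adjusted p = 0.0682), CD4 control replicate 2 (adjusted p = 0.124) or CD8 control replicate 2 (adjusted p = 0.0642), or in 1 fit of all 15 libraries (adjusted p = 0.344). Trav14-3 was not called in 1 fit of all 15 libraries (adjusted p = 0.0927). These copies of 1 duplicated segment cannot be separated with confidence. The 2 called V genes were 10% of those tested, below the 14.4% of all genes tested. Of 37 zinc finger genes 2 were higher in CD4 and 3 in CD8 cells, the largest being Zfp467, with 375, 534 and 605 in CD4 cells and 85.5, 149 and 104 in CD8 cells (log2 fold change 2.16, SE 0.27, adjusted p = 5.7e-05). These were 13.5% of the family, against 14.4% of all genes tested, and Zfp467 was not called in 1 fit of all 15 libraries (adjusted p = 0.0708). Of 49 solute carriers 3 were higher in CD4 and 5 in CD8 cells (16.3% of the family), Slc6a19 first. The count for CD8 cells was 3 rather than 5 without CD4 control replicate 2 or without CD8 control replicate 2. No histone gene of the family was analysed here.

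The lineages were compared again on day 7, in 3 Flica-negative CD4 and 3 Flica-negative CD8 libraries that share none of the control libraries. At that time 988 of 3726 tested genes (26.5%) differed, 446 (12%) higher in CD4 and 542 (14.5%) higher in CD8 cells. Of the 280 genes higher in CD4 cells on day 0, 262 were tested on day 7, where 113 were higher in CD4 cells, 21 higher in CD8 cells and 128 not called. Of the 235 genes higher in CD8 cells on day 0, 208 were tested, where 61 were higher in CD8 cells, 22 higher in CD4 cells and 125 not called. The day 7 cells differ from the controls by transfer, irradiated host, time and activation at once, and these cannot be told apart.

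A test of the difference between the day 0 and the day 7 lineage contrast called 473 of 4167 genes (11.4%), and 118 of 280 genes higher in CD4 cells (42.1%) and 107 of 235 higher in CD8 cells (45.5%) were among them, shares that are a description, since these genes were chosen by the day 0 contrast. Cd8a, Cd40lg and Zbtb7b kept the direction, with day 7 log2 fold changes of -11.00, 5.44 and 1.18 (adjusted p = 5.19e-11, 1.03e-08 and 0.00023). Zbtb7b had 1919, 1745 and 1422 normalized counts in day 7 CD8 cells, far above the 84.6, 127 and 48.1 of the control CD8 libraries, and 4113, 4070.3 and 3378 in day 7 CD4 cells. Pdlim4, Ccl5 and Maf also kept their direction (day 7 log2 fold changes 5.36, -3.10 and 2.44).

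Other genes lost the difference or turned. Fasl had 1585, 1237 and 998 normalized counts in day 7 CD4 cells and 2065, 1780.3 and 1378 in day 7 CD8 cells (adjusted p = 0.139, against 2.82e-05 on day 0), and the 2 contrasts differed with adjusted p = 4.85e-06. Pdcd1 had 4594, 4599 and 4269 in CD4 and 8024, 8221 and 8133 in CD8 cells on day 7, higher in CD8 cells (adjusted p = 0.000209; difference of contrasts, adjusted p = 1.4e-06). Ly6c1, Klrg1, Prdm1, Rgs16 and Osbpl3 were likewise higher in CD4 cells on day 0 and higher in CD8 cells on day 7.

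Among the genes higher in CD8 cells on day 0, Itgae had 131, 165 and 131 normalized counts in CD4 and 127, 63.4 and 115 in CD8 cells on day 7, where it did not pass the test (adjusted p = 0.334; difference of contrasts, adjusted p = 3.26e-06). Scart1 had 469, 605 and 553 in CD4 and 146, 110.1 and 189 in CD8 cells, higher in CD4 cells (adjusted p = 0.000342; difference of contrasts, adjusted p = 4.66e-05), and Ccr9 131, 137 and 159 in CD4 and 65, 77.4 and 74.2 in CD8 cells (adjusted p = 0.0349; difference of contrasts, adjusted p = 8.29e-07). Nkg7 stayed higher in CD8 cells, by a log2 fold change of -0.96 against -5.53 on day 0 (difference of contrasts, adjusted p = 8.29e-07). Il18rap had a day 7 log2 fold change of 0.02 (adjusted p = 0.931; difference of contrasts, adjusted p = 1.4e-06).

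**Figure D5:**
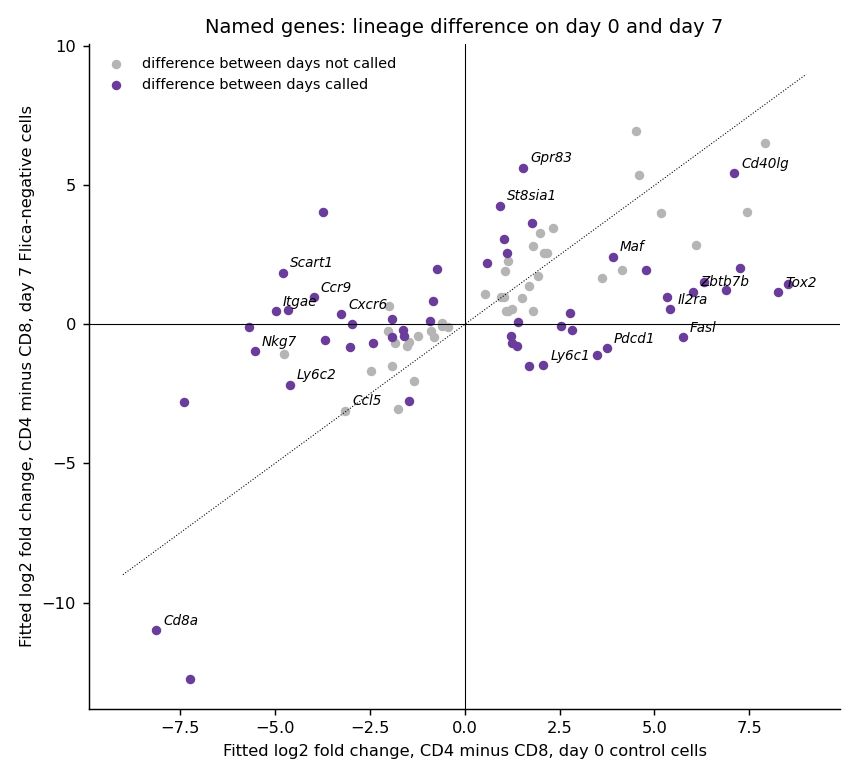
Fitted log2 fold change of CD4 minus CD8 for the 95 named genes that were tested on both days, in day 0 control cells (x axis) and day 7 Flica-negative cells (y axis), with the dotted line of equal values. The 53 genes in purple had a difference between the days at an adjusted p below 0.05, among them Fasl and Pdcd1 below the horizontal zero line and Scart1 above it.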

How the data were processed

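Libraries were made by the study with oligo-dT capture of mRNA from sorted mouse T cells and paired-end sequencing. The submitters' processing notes name STAR 2.7.1a, DESeq2 and GRCm38, and the counting tool and annotation are not given in the sources used here. In 4 gene tables the authors deposited raw counts of reads per gene for all 15 libraries, and beside them the mean expression signal of each gene, as deposited the 15-library mean of counts scaled by size factors of the authors. The tables hold only genes that the authors selected, and also their own fold changes and p-values, which were not used, nor were 4 enrichment tables. The 4 tables list 4567 genes, 4423 with a symbol.

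Size factors were solved from the deposited means (largest relative error 6.7e-15) and lay between 0.896 and 1.14 for the control libraries. The total depth of a library cannot be had from selected genes. CD4 and CD8 control libraries were compared with edgeR 4.0.16 (quasi-likelihood test, size factors as library sizes) in R 4.3.3, over genes whose mean reached 5 normalized counts, with Benjamini-Hochberg adjustment over these. Day 7 Flica-negative libraries were compared in the same way, and the difference of the 2 contrasts was an interaction term. A group with no library above 3 counts was taken as at the floor. The test, tested on simulated data of the day 0 comparison with 3460 genes of which 200 were changed 4-fold, called 85 of these and 3 unchanged genes, and 62 of the 65 changed genes whose mean reached 100.

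Named genes are the 10 largest differences in each direction among called genes with a symbol, a mean of at least 100 and no overlap, every called gene of the lineage, cytotoxic, regulatory T, follicular helper and memory-like CD8 lists, up to 4 called genes of each other list or family, and Cd4, Cd8a, Cd8b1, Casp1 and Casp4. The comparison, its 28 gene lists and 6 families were chosen with earlier results of these data known. Alternatives were TMM scaling, other filters, DESeq2 1.42.0, a replicate block, leaving out libraries, 1 fit of all 15 libraries, a gene subset and a minimum fold change. Leaving out both replicate 3 libraries, and the families in the closing section, were chosen after seeing the data. Some named genes are not reported here. Tables and plots used Python 3.11.15, pandas 2.3.3, numpy 2.4.6 and matplotlib 3.10.9.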

Additional observations from a re-analysis of the deposited data

Results flagged for a closer look

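For 53 of the 101 genes named by rule, the CD4 minus CD8 log2 fold change differed between day 7 and day 0 by the interaction term in edgeR (adjusted p below 0.05), against 11.4% of all genes tested for it. Since these genes were chosen by their day 0 difference, the count is a description. Each value that follows in parentheses is the day 7 minus the day 0 log2 fold change, and it is negative where the contrast moved towards CD8 cells. Of the 53, 26 were negative and 27 positive.

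Genes of regulatory T cells whose CD4 excess was smaller or turned on day 7 were Il2ra (-4.87), Nrp1 (-2.37), Ctla4 (-2.62), Tnfrsf9 (-1.63), Capg (-1.31), Prdm1 (-2.17) and Klrg1 (-4.60). Other genes higher in CD4 cells on day 0 that moved towards CD8 cells were Fasl (-6.19), Pdcd1 (-4.60), Maf (-1.46), Rgs16 (-3.17), Cd200r1 (-2.82), Cd40lg (-1.67), Zbtb7b (-4.84), Myo10 (-4.35), Itgb3 (-3.04), Ly6c1 (-3.53) and Osbpl3 (-1.91). Genes higher in CD8 cells on day 0 whose difference was larger on day 7 were Cd8a (-2.86) and Prf1 (-1.30). The mean of Cd8a was lower on day 7 in both lineages, 13875 against 19748 in CD8 cells and 6.43 against 69.4 in CD4 cells. In Tox2 (-7.10), Areg (-7.06), Il1rl1 (-5.65), Ccr8 (-5.23), Socs2 (-4.78) and Gm44175 (-5.48) one lineage had no library above 3 counts on one of the days, so the size of these values depends on the prior count of the fit.

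Genes of cytotoxic and memory-like cells whose CD8 excess was smaller or turned on day 7 were Nkg7 (4.57), Ctsw (2.20), Cst7 (1.74), Klrd1 (3.14), Il18rap (2.98), Il2rb (1.45), Tbx21 (1.48), Cxcr3 (1.20) and Ly6c2 (2.44). Genes of these lists not called on day 0 could not appear here. Of 14 cytotoxic genes tested on day 7, 9 were called higher in CD8 cells and 1 higher in CD4 cells. Over all genes tested on day 7 the shares were 14.5% and 12%. Others higher in CD8 cells on day 0 that moved towards CD4 cells were Itgae (5.46), Ccr9 (4.96), Cxcr6 (3.63), Scart1 (6.65), Scart2 (5.17), Adgrg5 (4.59), Lcn4 (5.59), Ier3 (2.09), Zfp827 (1.04), Tdrp (2.72), Dapl1 (1.70) and Ighj1 (7.78). The value of Ighj1 rests on few reads. This immunoglobulin segment had 7.05, 17.9 and 84.9 normalized counts in day 7 CD4 cells and 0, 0 and 6.04 in day 7 CD8 cells. Genes with a larger ratio of CD4 to CD8 cells on day 7 were Gpr83 (4.10), St8sia1 (3.34), Igfbp4 (1.90), Amigo2 (2.04), Bach2 (1.61) and Iigp1 (1.45). Apart from Iigp1, the means of these genes were lower on day 7 in both lineages. For Igfbp4 the mean was 2349 against 15028 in CD4 cells and 185 against 4407 in CD8 cells. With TMM scaling 47 of the 53 remained called, with DESeq2 53 and with a replicate block 53.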

How the results depend on the processing

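The count of genes that differed on day 0 was 515, and it was 500 to 606 with TMM scaling (510), no filter (554), a minimum mean of 20 (500) and DESeq2 (606), 432 in 1 fit of all 15 libraries, 408 with a 2-fold minimum, 381 to 457 when 1 library was left out, and 482 without both replicate 3 libraries, of which 428 were among the 515. The share of called genes that were higher in CD4 cells stayed between 49.2% and 57.4% in these. It varied with the comparison that had listed a gene. Of 397 tested genes listed for CD4 cells only, 24 were higher in CD4 and 64 higher in CD8 cells. Of 1896 listed for CD8 cells against control only, 113 were higher in CD4 and 80 higher in CD8 cells. Of 1203 listed for both lineages, 140 were higher in CD4 and 90 higher in CD8 cells. Restricted to genes listed in the comparison of Flica-positive with Flica-negative CD8 cells, whose selection did not use the control libraries, 54 of 729 genes (7.41%) were called, 37 higher in CD4 and 17 higher in CD8 cells, with fewer genes tested.

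Whether replicate numbers pair CD4 and CD8 libraries was checked by correlating deviations from the group means over 2526 genes. Same-numbered libraries gave 0.145, 0.0783 and 0.0142, and each library correlated best with its own number, a hint from the data only. For replicate 3 the margin was small. CD4 replicate 2 with CD8 replicate 3 gave 0.0111, and CD4 replicate 3 with CD8 replicate 2 gave 0.00857. With a replicate block 552 genes were called on day 0, 475 of them among the 515, and of the named genes Il21 (adjusted p = 0.0592) and Ighj1 (0.0702) lost their call.

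The day 7 count of 988 ranged from 628 (without Flica-negative CD4 replicate 2) to 944 when 1 library was left out, and it was 648 without Flica-negative CD8 replicate 2. The number of genes whose lineage contrast differed between days was 473 and fell to 308 with TMM scaling, and the cause was not tested. Of the 99 called genes named by rule, 63 kept their call and direction under every alternative with a value, 36 lost the call under at least 1, and none turned. The sums over listed genes do not show the depth, so a gene with few reads in both lineages, such as Casp4, could differ without being called.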

Other observations

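Further families were read after values had been seen, so they are descriptions. Sialyltransferases, which cap glycans with sialic acid, were higher in CD4 cells for 3 of 5 tested. St3gal2, which adds alpha-2,3-linked sialic acid, had 419.9, 437 and 432 normalized counts in CD4 cells and 86.3, 48.4 and 73.1 in CD8 cells (log2 fold change 2.63, SE 0.26, adjusted p = 7.14e-06 in edgeR), beside St8sia6 and St8sia1. Carbohydrate sulfotransferases and chondroitin synthases were called for 4 of 6 tested, 3 of them higher in CD8 cells. Chsy1, which extends the chain, had 1556, 1552 and 1689 in CD8 cells and 288, 244 and 329 in CD4 cells (log2 fold change -2.48, SE 0.18, adjusted p = 3.7e-07). Chst11, a sulfotransferase of chondroitin, had 208, 215 and 282 in CD8 and 11.2, 31.9 and 26.7 in CD4 cells (log2 fold change -3.32, SE 0.39, adjusted p = 4.01e-05). Chst15, another of these, had 788, 751 and 806 in CD8 and 369.6, 291 and 508 in CD4 cells (log2 fold change -1.0, SE 0.21, adjusted p = 0.00426). Chst2, which sulfates N-acetylglucosamine, went the other way with 103, 98.6 and 181 in CD4 cells and 28.2, 32.2 and 28.9 in CD8 cells (log2 fold change 2.09, SE 0.40, adjusted p = 0.00236). All 4 separated the lineages without overlap.

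Adhesion G protein-coupled receptors were higher in CD8 cells for 2 of 8 tested, Adgrg5 and Adgrb2, the latter with 174, 129 and 163 normalized counts in CD8 cells and 4.47, 0 and 0 in CD4 cells (log2 fold change -6.73, SE 0.76, adjusted p = 2.51e-05 in edgeR). Integrin chains were higher in CD4 cells for 4 of 15 tested (Itgb1, Itgb3, Itgb8, Itga9) and higher in CD8 cells for 3 (Itgae, Itgax, Itgad). Itga9, which pairs with integrin beta 1, had 91.6, 68.7 and 21.3 in CD4 cells and 10.6, 6.27 and 0 in CD8 cells (log2 fold change 3.39, SE 0.94, adjusted p = 0.0255). Genes of the TNF and TNF receptor superfamilies were higher in CD4 cells for 6 of 15 tested and higher in CD8 cells for none in edgeR, with 2 higher in CD8 cells at an unadjusted p below 0.05 and 1 called so by DESeq2. Tnfrsf8 (CD30) among them had 30.1, 12.6 and 20.5 in CD4 cells and no read in the CD8 libraries (adjusted p = 0.0169). The median log2 fold change of the 15 tested genes of these superfamilies was -0.06, against 0.06 over all genes tested. Over all genes tested 14.4% were called.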
